A study of Homo sapiens with 4 samples.

Results

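Cyclin Y (CCNY) and its close relative cyclin Y-like 1 (CCNYL1), the kinases CDK14, CDK16, CDK17 and CDK18, and the Wnt co-receptors LRP5 and LRP6 were followed in Hs578T cells depleted of talin-1. These 8 genes, of 60721 in the deposited count table, were taken by name through their Ensembl identifiers. All 8 were found, and all 8 were among the 16137 genes that passed a filter on low counts. The set was chosen by the measured fall of CCNYL1 in siTLN1 against SCR in these libraries, so the values of CCNYL1 are given as a description with no test. The other 7 were added as its relatives, partners and substrates with results of this comparison known, and what is given for them is no independent evidence.

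Cyclin Y is an unusual cyclin that is held at the plasma membrane by a lipid anchor and brings CDK14 there. The CDK14-cyclin Y complex phosphorylates the intracellular tail of LRP6, and this primes the receptor for Wnt signalling, mainly in cells about to divide. Cyclin Y also activates CDK16, and cyclin Y-like 1 can take part in the same complexes. CDK17 and CDK18 are the closest relatives of CDK16. LRP5 and LRP6 bind Wnt ligands together with a Frizzled receptor and recruit axin, which spares beta-catenin from destruction.

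Hs578T is an established line from a human breast carcinoma. In both groups the cells were co-transfected with GFP, and RNA was purified 48 h after transfection with the RNA of that group at 1.6 µM. The SCR group received a non-targeting control siRNA and the siTLN1 group an siRNA against TLN1, which encodes talin-1, the adaptor between integrins and actin. Each group held 2 libraries, described as biological replicates, and their total gene counts ran from 31854322 to 46353297. The count columns name only the group, so the libraries are called a and b after a number that recurs in both groups and whose meaning is not given in the sources used here.

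TLN1 stood at 868 and 874 CPM (counts relative to library size, scaled between libraries by TMM) in SCR and at 51.9 and 44.8 CPM in siTLN1, so the target was low in both libraries labelled siTLN1. The cells are labelled as epithelial. Of 10 epithelial markers, 3 (KRT18, KRT8 and CLDN4) averaged at least 1 CPM, while EPCAM was at 0.144 CPM or less and CDH1 at 0.851 CPM or less. All 8 mesenchymal markers averaged at least 1 CPM, and their sum was at 45757 and 42867 CPM in SCR and at 50254 and 43612 CPM in siTLN1. The largest part of this sum was FN1, which was higher in siTLN1, with 26298 and 23553 CPM in SCR and 32369 and 26960 CPM in siTLN1. VIM was at 3811 to 3968 CPM over all libraries. Lower in siTLN1 were CDH2, with 569 and 535 CPM in SCR and 303 and 293 CPM in siTLN1, and SPARC, with 5119 and 4917 against 3705 and 3500 CPM. The part of these levels in the results below was not tested. The summed epithelial markers were at 123 and 153 CPM in SCR and at 132 and 143 CPM in siTLN1. The summed leukocyte and endothelial markers did not exceed 1.54 and 6.17 CPM, with CD3E and LYZ at 0 counts. These are bulk libraries, in which fewer cells with a transcript and less transcript per cell cannot be told apart.

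The sites of a 7-base word, GACAACA, are shown here because CCNYL1 and TLN1 both carry it. Many other genes carry it too: of 9494 protein-coding genes compared below, 77.3% had no copy in 3′ UTR or coding sequence. The word came from an earlier search of these same data, in which transcripts with it were lower in siTLN1. As background, the guide strand of an siRNA can also lower other transcripts that pair with its first bases. The sequence of the siRNA is not given in the sources used here, so whether the word matches it was not tested. Each line gives 30 bases of a GENCODE 29 transcript, 5′ to 3′, with the word in capitals:

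CCNYL1 3′ UTR, chr2:207753823-207753852, plus strand: agagactcatgGACAACAaggattatactc

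CCNYL1 coding, chr2:207751049-207751078, plus strand: ccttagcagatGACAACAacctgaattttc

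CDK14 3′ UTR, chr7:91207500-91207529, plus strand: aaatacattaaGACAACAcatttggtgttc

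LRP6 coding, chr12:12158829-12158858, minus strand: ctcttaatgctGACAACAggacttgtagtg

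TLN1 coding, chr9:35706025-35706054, minus strand: gtagaggacctGACAACAaccctcaacgag

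Coordinates are on GRCh38. In the transcript with the longest coding sequence, CCNYL1 held 1 copy in its 3′ UTR of 2476 bases and 1 in its coding sequence. CDK14 was the only other member with a copy in the 3′ UTR of that transcript. LRP6 and LRP5 held 1 copy each in coding sequence. LRP5 had a further one that starts in its 5′ UTR and ends on the A of the start codon. The chosen transcripts of CCNY, CDK16, CDK17 and CDK18 held none. Across all annotated transcripts, 6 of 7 of CCNYL1, 7 of 15 of CDK14, 3 of 7 of LRP6, 2 of 7 of LRP5 and 1 of 23 of CDK18 held the word, against 0 of 10 of CCNY, 0 of 23 of CDK16 and 0 of 12 of CDK17. The identical stretch between the single TLN1 copy and the coding copy of CCNYL1 was 11 bases long, and it was 8 bases for the 3′ UTR copy of CCNYL1, 9 for LRP6 and 7 for CDK14. Such stretches were not measured in other genes for comparison, and whether the siRNA pairs at this TLN1 copy was not tested.

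CCNYL1 (ENSG00000163249.12, GRCh38 chromosome 2, 207711540 to 207761839, plus strand) encodes the less studied of both cyclin Y proteins. It had 59.9 and 49.6 CPM in SCR libraries a and b and 18.7 and 21.2 CPM in siTLN1 libraries a and b. Both siTLN1 libraries lay far below both SCR libraries, and 36.4% of the SCR mean was left. Its log2 fold change was −1.46 (standard error 0.11, 95% interval −1.70 to −1.21). Only 0.304% of the tested genes had a lower value. Its raw counts were 1903 and 1727 in SCR and 680 and 995 in siTLN1.

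Counting sets a limit on the level of CCNYL1. An antisense gene shares 564 of its 4707 exon bases, 12.0% in all, and had 0 counts in each library. The counting command names no option for reads that touch more than 1 gene. Of the 50-base stretches in the transcript with its longest coding sequence, 19.5% also occur in another gene, either strand counted. The antisense gene holds 13.9%, CCNYL6 3.6% and CCNYL5 1.69%. None occurs in CCNY, and none of those of CCNY occurs in another gene's annotated transcripts.

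CCNY (ENSG00000108100.18, chromosome 10, 35247025 to 35572669, plus strand) encodes cyclin Y itself. It had 99.1 and 94.8 CPM in SCR libraries a and b and 96.5 and 103 CPM in siTLN1 libraries a and b. The groups overlapped, and each group mean lay within the spread of the other, at 96.9 ± 3.03 CPM (SD, n = 2) and 99.6 ± 4.43 CPM (SD, n = 2). Its log2 fold change was 0.039 (standard error 0.093, 95% interval −0.16 to 0.23). By the quasi-likelihood test of edgeR its Benjamini-Hochberg adjusted p over all tested genes was 0.877, and adjusted p values of single genes below come from that test unless another is named. Without siTLN1 library b the value was −0.0032.

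**Figure D1:**
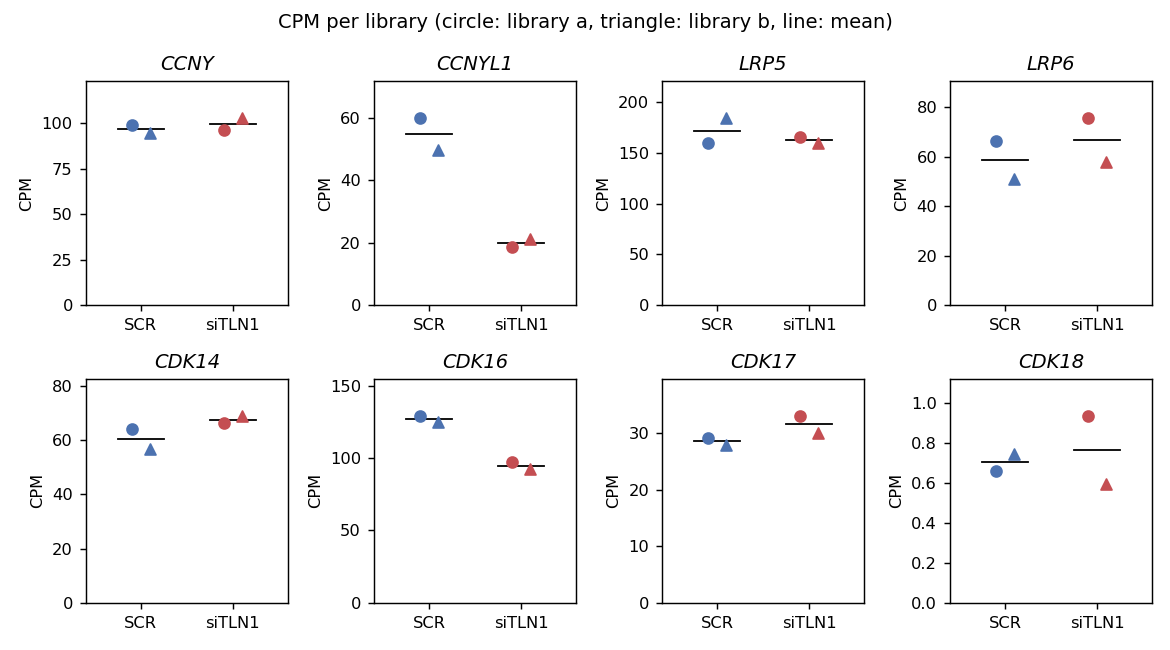
CPM (y axis, from 0) of the 8 genes in the SCR and siTLN1 libraries; circles are library a, triangles library b and lines group means. CCNYL1 and CDK16 are lower in both siTLN1 libraries, CCNY overlaps between groups, and LRP6 is higher in library a than in library b of each group.

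The question put to these values was whether CCNY made up for the fall of CCNYL1. Levels of the 2 genes were compared as CPM per kilobase of exon. The length used was that of all annotated exon bases of a gene, which can exceed that of the transcript expressed. Ratios, shares and orders between genes, here and below, depend on this length. In SCR, CCNY was at 15.9 ± 0.496 and CCNYL1 at 11.6 ± 1.54 CPM per kilobase (SD, n = 2). In siTLN1 they were at 16.3 ± 0.725 and 4.23 ± 0.375 CPM per kilobase (SD, n = 2). CCNY was thus 1.36 times the level of CCNYL1 in SCR and 3.85 times in siTLN1. CCNYL1 made up 44.0% and 40.4% of the summed pair in SCR and 20.1% and 21.1% in siTLN1.

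CCNYL1 lost 7.39 CPM per kilobase between the group means, and CCNY gained 0.436. That gain is 5.9% of the loss, and the 95% interval of the CCNY fold change runs from −22.0% to 38.0% of it. To replace the loss in full CCNY would have needed a log2 fold change of 0.55, or 1.47-fold, and the upper end of its interval was 1.18-fold. With plain CPM in place of CPM per kilobase the needed value was 0.44, which also lay above that interval. In all 8 fits that gave both values, those that left out a library included, the upper end of the interval for CCNY stayed below the needed value. At the level of RNA, a full replacement by CCNY was therefore outside the measured interval, with the loss of CCNYL1 taken as fixed. The set was chosen by that loss, so the needed value may be too high, and it has no interval of its own. The 8 fits use the same libraries and are not separate evidence. The upper end of 38.0% holds for the main fit and CPM per kilobase only, with the loss of CCNYL1 taken as fixed. It changes with the fit and the scaling. A partial replacement below that end was not detectable with 2 libraries per group.

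The summed cyclin Y transcripts were at 28.9 and 26.1 CPM per kilobase in SCR and at 19.8 and 21.3 in siTLN1. The siTLN1 sums were below both SCR sums, with 74.7% of the SCR mean left. With the counts of both genes added into 1 row of the fit, the log2 fold change was −0.34 with a 95% interval from −0.54 to −0.14. This sum includes CCNYL1 and is therefore a description too.

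**Figure D2:**
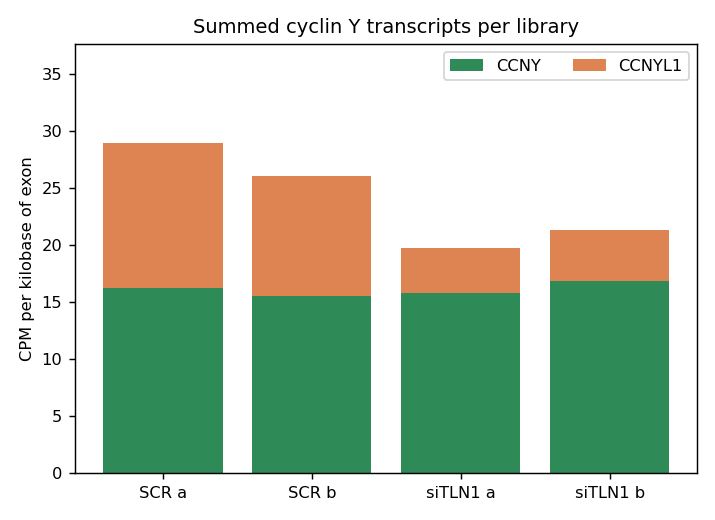
Summed CPM per kilobase of exon (y axis, from 0) of CCNY and CCNYL1 in each of the 4 libraries, stacked. The CCNY part stays between 15.5 and 16.8, and the CCNYL1 part goes from 10.5 and 12.7 in SCR to 3.97 and 4.50 in siTLN1.

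Other genes named after cyclin Y contributed little. CCNYL2 had 14 counts over the 4 libraries, CCNYL6 16, CCNYL7 6 and CCNYL5 1, and CCNYL3 and CCNYL4 had none. None of these 6 passed the filter on low counts. The antisense gene CCNY-AS1 passed it, with 0.661 and 1.06 CPM in SCR and 0.687 and 0.809 CPM in siTLN1, and shares no exon bases with CCNY.

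Among the partner kinases, CDK16 (ENSG00000102225.16, chromosome X, 47217860 to 47229997, plus strand) was the one that fell. CDK16 is a kinase that cyclin Y switches on and that is known for its part in sperm formation and vesicle transport. It had 129 and 125 CPM in SCR libraries a and b and 96.9 and 92.6 CPM in siTLN1 libraries a and b. The groups did not overlap, and the gap between them was far larger than the spread within either. The log2 fold change of CDK16 was −0.42 (standard error 0.091, adjusted p 0.0110). Leaving out siTLN1 library a gave −0.45 at an adjusted p of 0.0825 and leaving out siTLN1 library b −0.38 at 0.0931, so the call needed both siTLN1 libraries. No annotated transcript of CDK16 holds GACAACA, and the cause of the fall of CDK16 was not tested.

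CDK14 (ENSG00000058091.17, chromosome 7, 90466424 to 91210590, plus strand), the kinase that phosphorylates LRP6 with cyclin Y, had 64.0 and 56.5 CPM in SCR and 66.3 and 68.8 CPM in siTLN1. The siTLN1 values lay just above both SCR values. The log2 fold change of 0.16, with a 95% interval from −0.042 to 0.37, did not pass the threshold (adjusted p 0.383). Its exons share 2.86% of their bases with other genes on the same strand, mainly CLDN12.

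CDK17 and CDK18 are relatives of CDK16 with less known roles. CDK17 had 29.2 and 27.9 CPM in SCR and 33.0 and 30.1 CPM in siTLN1, again without overlap, at a log2 fold change of 0.14 (adjusted p 0.484). CDK18 was barely present, with 21 and 26 raw counts in SCR and 34 and 28 in siTLN1, or 0.596 to 0.934 CPM. Its log2 fold change of 0.083 had a 95% interval from −0.64 to 0.81 (adjusted p 0.932), so a change of this size was not detectable at this depth.

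Per kilobase of exon, CDK16 made up 59.0% and 60.4% of the summed 4 kinases in SCR and 50.3% and 49.3% in siTLN1. The share of CDK14 was 27.3% and 25.5% in SCR and 32.0% and 34.2% in siTLN1. The summed kinases were at 33.5 and 31.6 CPM per kilobase in SCR and 29.5 and 28.7 in siTLN1. These shares are tied to each other, since a lower CDK16 raises the share of the rest.

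LRP6 (ENSG00000070018.9, chromosome 12, 12116025 to 12267044, minus strand), the substrate of CDK14 and cyclin Y, had 66.4 and 50.9 CPM in SCR libraries a and b and 75.6 and 58.1 CPM in siTLN1 libraries a and b. The groups overlapped, and library a was higher than library b in each. Its log2 fold change was 0.19 (standard error 0.15, adjusted p 0.536). Leaving out SCR library a gave 0.39 (adjusted p 0.0412), leaving out SCR library b 0.0092, leaving out siTLN1 library a −0.011 and leaving out siTLN1 library b 0.37. Between libraries of the same letter LRP6 was higher in siTLN1 in both cases, but no label states that the letters pair the libraries.

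LRP5 (ENSG00000162337.12, chromosome 11, 68312591 to 68449275, plus strand), the second co-receptor, known for its part in bone mass, had 160 and 184 CPM in SCR and 166 and 160 CPM in siTLN1. Only SCR library b stood above the rest. The log2 fold change was −0.077 with a 95% interval from −0.28 to 0.13 (adjusted p 0.732), and 0.028 without SCR library b. Per kilobase LRP5 was 4.04 and 6.06 times the level of LRP6 in SCR and 3.68 and 4.62 times in siTLN1, and these ratios overlap.

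**Figure D3:**
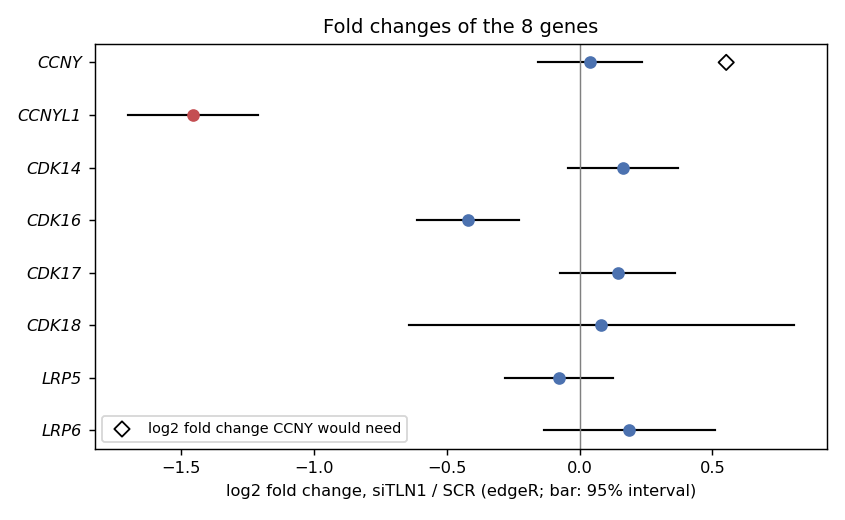
Log2 fold change of siTLN1 over SCR (x axis) for the 8 genes, with 95% intervals from the edgeR fit; the open diamond is the 0.55 that CCNY would have needed to replace the loss of CCNYL1. CCNYL1 was the gene chosen for its fall and is drawn in red as a description; of the other 7, CDK16 has an interval below 0 and 6 include 0, and the diamond lies outside the interval of CCNY.

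In all, 2 of the 8 genes, CCNYL1 and CDK16, passed an adjusted p of 0.05 as lower and 0 as higher. Among all tested genes 3.77% were lower and 2.3% higher. CCNYL1 chose the set and its pass is no test, so the count is not read further. The libraries of 2 members, CCNYL1 among them, were lower without overlap and those of 2 were higher without overlap. Of all tested genes, 24.6% were lower and 23.9% higher in this way. The median log2 fold change was 0.061 for the members and 0.0033 for all tested genes. With 2 libraries per group an exact permutation test of a single gene cannot go below a two-sided p of 0.333.

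The order of the members by CPM per kilobase in SCR was LRP5 (27.8), CDK16 (19.4), CCNY (15.9), CCNYL1 (11.6), CDK14 (8.59), LRP6 (5.65), CDK17 (4.42) and CDK18 (0.103). No neighbours in this order overlapped between their SCR libraries. The order holds for these exon lengths, and an order by the length of single transcripts was not made. In siTLN1 CCNYL1 moved from rank 4 to rank 7, below CDK17 at 4.88, and CCNY passed CDK16, which stood at 14.5. LRP5 stayed first at 26.4 and CDK18 last at 0.112.

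The presence of GACAACA was set against fold changes over 9494 protein-coding genes at a mean of 5 CPM and up whose 3′ UTR had 100 bases or more, with TLN1 excepted. Of these, 757 (7.97%) held the word in the 3′ UTR. They had a median log2 fold change of −0.097, with 151 (19.9%) lower and 14 (1.85%) higher at an adjusted p of 0.05. The 7342 genes with no copy in 3′ UTR or coding sequence had a median of 0.015, with 3.38% lower and 2.71% higher. These shares come from the data in which the word was found, and the part of the word in the fall of CCNYL1 was not tested. The 2 groups of genes were not matched for the length of 3′ UTR or coding sequence, and no other word was counted for comparison.

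**Figure D4:**
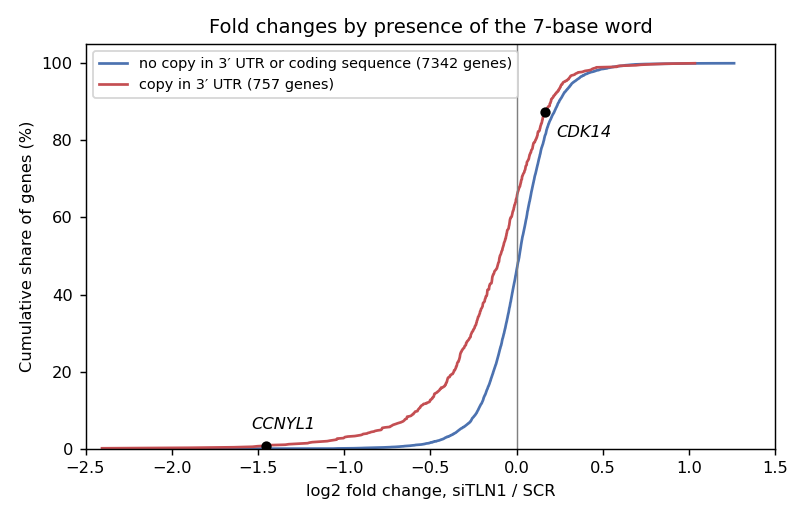
Cumulative share of genes (y axis, percent) by log2 fold change of siTLN1 over SCR (x axis), for 757 genes with the word in the 3′ UTR and 7342 without a copy. The curve of the holders lies to the left over most of its lower range; CCNYL1 sits at its lower tail and CDK14 in its upper part.

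Genes with the pattern most like that of CCNYL1 over the 4 libraries were sought among 10429 genes averaging at least 5 CPM, by the distance between log2 CPM centred on each gene's mean. The nearest were MRAP2, an accessory protein of melanocortin receptors, at a distance of 0.18, MYBL2, a transcription factor of dividing cells, at 0.22, and PMP22, a membrane protein of myelin, at 0.23. MRAP2 was at 8.09 and 6.92 CPM in SCR and at 2.34 and 3.15 CPM in siTLN1. The chosen transcript of MRAP2 has no copy of the word, that of MYBL2 has 2 in coding sequence, and that of PMP22 has 1 in the 3′ UTR.

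Other genes of the same pathway were taken from 7 lists written from general knowledge, but with earlier results of these data known. The shares given for them are therefore a description and no independent evidence. They hold 160 genes, of which 128 were tested, and 9 of these rose and 11 fell, or 15.6% against 6.07% of all tested genes. Their median log2 fold change was 0.039. Without siTLN1 library a the number of calls was 9. Of 15 genes named from the lists, 7 passed in all 4 fits that left out a library: FZD6, GPC4, LGR5, APCDD1, NKD1, CCNG1 and CCNQ. None of the 15 changed sign in these fits.

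Of 39 tested genes of the Wnt receptor complex and the beta-catenin machinery, 3 rose and 1 fell, at a median log2 fold change of 0.081. The 4 calls became 1 without siTLN1 library a and 2 without either SCR library b or siTLN1 library b. The one that fell was FZD6, a Frizzled receptor often linked to beta-catenin-independent signalling. FZD6 had 209 and 183 CPM in SCR and 88.2 and 75.5 CPM in siTLN1, a log2 fold change of −1.26 (adjusted p 3.335e-06). FZD6 holds 1 copy of GACAACA in its 3′ UTR and 1 in its coding sequence, as CCNYL1 does. FZD7, another Frizzled, rose from 132 and 129 CPM to 185 and 161 CPM (adjusted p 0.0184), but lost its call when SCR library b or siTLN1 library a was left out. LEF1, a transcription factor that works with beta-catenin, rose by a log2 fold change of 0.42 (adjusted p 0.0225) and kept its call in 1 of the 4 fits that left out a library.

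Among 16 tested regulators of LRP5/6 and Frizzled, 1 rose and 3 fell. GPC4, a cell-surface glypican, fell from 16.7 and 15.9 CPM to 8.27 and 7.98 CPM (adjusted p 7.733e-05), and it holds the word once in its 3′ UTR. LGR5, a receptor for R-spondins, rose from 10.7 and 9.85 CPM to 19.9 and 19.0 CPM (adjusted p 0.000127). APCDD1, a membrane inhibitor of Wnt signalling, had a log2 fold change of −0.56 (adjusted p 0.0035). The third that fell was SFRP2, a secreted inhibitor, at −0.54 (adjusted p 0.0164), which falls outside the naming rule and was named after its values were seen.

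Of 13 tested Wnt target genes, which share LGR5, APCDD1, LEF1 and others with the lists above, 4 rose and 1 fell, at a median of 0.28, and the 5 calls became 3 when either siTLN1 library was left out. NKD1, an inhibitor that binds Dishevelled, rose from 1.79 and 1.46 CPM to 4.86 and 3.89 CPM, a log2 fold change of 1.42 (adjusted p 0.000489). Its chosen transcript holds 2 copies of the word in a 3′ UTR of 15468 bases. Of 10 tested WNT ligands 1 rose and 1 fell, and the 2 calls became 1 when either siTLN1 library was left out. WNT7B had a log2 fold change of 0.43 (adjusted p 0.0197) and WNT5B one of −0.42 (adjusted p 0.0240). WNT7B kept its call in 1 of the 4 fits that left out a library, and WNT5B lost it without siTLN1 library b.

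Among 36 tested cyclins outside the Y family and CDKs outside CDK14 to CDK18, 5 fell and 0 rose, at a median of −0.010, and the 5 calls became 2 without siTLN1 library a. CCNG1, a cyclin induced by p53, had a log2 fold change of −0.68 (adjusted p 0.000284). CCNQ, the partner of CDK10, had one of −0.75 (adjusted p 0.0023), and CCNE1, the partner of CDK2, one of −0.73 (adjusted p 0.0030). CCNE1 lost its call without siTLN1 library a, at an adjusted p of 0.0732. CDK5R1, the activator of CDK5, was the only 1 of 13 tested cyclin Y interactors and kinase relatives to pass, at 0.52 (adjusted p 0.0423), and it kept its call in 1 of the 4 fits that left out a library.

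Of 11 tested members of the LDL receptor family other than LRP5 and LRP6, LRP4 rose and LRP8 fell, and the 2 calls became 0 without siTLN1 library a and 1 without either SCR library a or siTLN1 library b. LRP4, a receptor of the neuromuscular junction, had 6.79 and 7.49 CPM in SCR and 12.8 and 11.0 CPM in siTLN1 (log2 fold change 0.73, adjusted p 0.0037), and an adjusted p of 0.0716 without siTLN1 library a. LRP8, a reelin receptor, had a log2 fold change of −0.46 (adjusted p 0.0100) and kept its call in 1 of the 4 fits that left out a library. Over all lists, 2 of the 11 genes that fell and 1 of the 9 that rose held GACAACA in the 3′ UTR, against 10 of the 128 tested. With coding sequence counted too, 6 of the 11 that fell and 4 of the 9 that rose held it, against 35 of the 128. LRP4 and LGR5, which rose, held 4 and 1 copies in coding sequence.

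**Figure D5:**
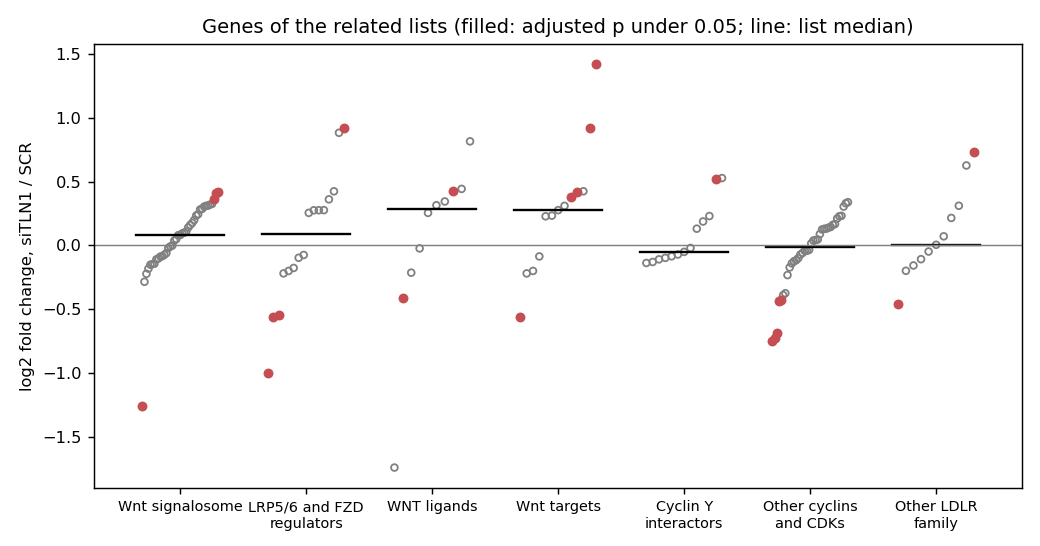
Log2 fold change of siTLN1 over SCR (y axis) for every tested gene of the 7 lists (x axis), ordered by value within a list; filled points passed an adjusted p of 0.05 and lines are list medians. FZD6 is the lowest filled point at −1.26 and NKD1 the highest at 1.42; a gene in several lists is drawn in each.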

How the data were processed

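Polyadenylated RNA was sequenced from stranded libraries, per the labels' protocols. The authors deposited raw counts per gene from featureCounts 2.0.0 (paired mode, no strand option, GENCODE 33, GRCh38), per the file headers; STAR 2.7.9a is named in the submitters' processing notes. Exon lengths come from another column of that deposited table (unit: bases, other than counts). For 16137 genes the authors deposited log2 CPM as well; sorted within groups, 100% of these values equalled TMM-scaled log2 CPM within 1e-06. No column was left unmapped and 0 rows named no gene.

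Genes passing filterByExpr (minimum count 10, minimum total 15) were compared by edgeR 4.0.16 (R 4.3.3) with TMM scaling and the robust quasi-likelihood test, with Benjamini-Hochberg adjustment over 16137 genes and a threshold of 0.05. Standard errors and 95% intervals follow from that fit, and the spread between libraries may be partly technical. In simulated data of 15821 genes, 81 of 100 genes changed 2-fold and 64 of 100 changed 1.5-fold were recovered with 8 false calls. Of the intervals of these changed genes, 94.9% held the true value. The simulated libraries were independent and followed the fitted dispersion trend, with no spread particular to a gene and no part shared between groups. Alternatives used RLE, total counts only, no filter, DESeq2 1.42.0, limma 3.58.1 on the deposited log2 CPM with and without a replicate block, and each library left out.

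Members and lists were chosen with earlier results of these data known. Named genes are the members, TLN1, genes named after CCNY, up to 3 genes per list with the smallest p past the threshold, and the 3 nearest to CCNYL1. Words were counted in GENCODE 29 transcripts, an older release than that of the counts, in the coding transcript with the longest coding sequence. Python 3.11.15 and matplotlib 3.10.9 were used.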

Additional observations from a re-analysis of the deposited data

How the results depend on the processing

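Scaling by RLE, total counts only, no filter, DESeq2 and limma on the deposited log2 CPM kept the direction and the side of the threshold of CCNY and of the 6 other tested members, except that DESeq2 gave no adjusted p for CDK18, and left 2 members past the threshold. Counts of members past the threshold include CCNYL1, which chose the set. Fits that left out 1 library assume that the lone library varies like the other group. Over them CCNY ran from −0.0032 (without siTLN1 library b) to 0.086, the needed fold change from 0.49 to 0.61, the cyclin Y sum from −0.41 to −0.27, CCNYL1 from −1.58 to −1.31, members past the threshold from 1 to 3 and list genes from 9 to 21. LRP5 ran from −0.17 to 0.028 (without SCR library b), CDK18 from −0.24 (without siTLN1 library a) to 0.41, and LRP6 from −0.011 (without siTLN1 library a) to 0.39. With plain CPM the needed log2 fold change was 0.44 in place of 0.55. This difference follows from the exon lengths, 6108 bases for CCNY and 4707 for CCNYL1. The cause of the shifts between the fits that left out a library was not tested. Differences between replicates 1 and 2 of the labels correlated between the groups at 0.19 over all genes and at 0.54 at 5 CPM or more, but 2 pairs and no label of a shared preparation do not establish pairing. With the replicate block, limma passed 3 members (LRP6 at 0.19, adjusted p 0.0254, within 0.0254 to 0.988 over its alternatives) and 48 list genes, and CCNY stayed at 0.039 (adjusted p 0.734). No sum was fitted with the block, which needs the log2 CPM table. Depth limits CDK18 most, since the other 7 members had 680 to 7520 counts per library.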
